A study of Homo sapiens with 3 samples.

Results

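The insulin-like growth factor (IGF) system was read in MCF10A cells through 10 genes: the ligands IGF1 and IGF2, the scavenger receptor IGF2R and the 7 binding proteins IGFBP1 to IGFBP7. The rule takes them by symbol, as the rows of the deposited table whose Ensembl identifier carries one of these symbols in GENCODE release 44, and all 10 were found among the 62754 genes of the table. MCF10A cells are human breast epithelial cells that are immortalized and do not form tumours. The cells had been transduced with the empty vector of the Retro-X Tet-One inducible system and selected with puromycin, carried no gene of interest in that vector, and were harvested without doxycycline. RNA was taken at 27 h after seeding in 3 replicates, and libraries were made from 300 ng of RNA depleted of ribosomal RNA. The replicates were treated here as 1 batch, which their titles and library names do not state. The sampling time is taken from the study's methods, which do not mention the vector. All replicates are of 1 condition, so no group could be compared with another. The labels do not say whether the replicates came from separate cultures, so the spread between them may be technical.

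IGF1 and IGF2 are small secreted hormones that act through the receptor tyrosine kinase IGF1R and, in part, through the insulin receptor INSR. The 6 classical binding proteins IGFBP1 to IGFBP6 hold the ligands with high affinity outside the cell, lengthen their lifetime and limit their access to the receptor, while IGFBP7 binds IGFs only weakly. IGF2R does not signal like a kinase. It takes up IGF2 for degradation and carries newly made lysosomal enzymes that bear mannose 6-phosphate. In the breast the ligands are known mainly as products of the stroma and the liver, and the epithelium as the cell that receives them. The growth supplement used for MCF10A cells contains insulin, which acts on the same receptors.

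Levels are given in TPM, that is, reads per gene length, scaled so that each replicate sums to 1000000. Multiplied by gene length, the deposited values were whole multiples of 1 smallest step for 100% of the annotated genes, within 0.01 of a whole number. Counting 1 read per step, the total per replicate was between 11166546 and 15446347 reads, and limits from reads cover counting error only. TPM is relative, and the 8809 genes that averaged 10 TPM or more were lower in replicate 3, with a median log2 ratio to replicate 1 of -0.25 and to replicate 2 of -0.24. The labelled cell type, breast epithelial, was checked against markers, and the label does not say basal. All 7 genes listed as markers of basal breast epithelium were at or above 1 TPM, with KRT5 at 6612 ± 890 TPM (SD, n = 3). Of these, CDH1 at 29.1 and EPCAM at 14.6 TPM are general epithelial genes and do not mark basal cells. Among 4 markers of hormone-responsive luminal cells, 2 were at or above 1 TPM. GATA3 was at 12.8 and FOXA1 at 1.11 TPM, and the hormone receptors ESR1 and PGR had 3 and 1 reads in all. Of the fibroblast markers, DCN at 9.05 ± 0.30 and COL1A1 at 4.96 ± 0.39 TPM (SD, n = 3 each) were detected. COL1A2, LUM and PDGFRA had 0 reads and COL3A1 had 2, and the summed level of the 6 fibroblast genes was between 13.4 and 14.4 TPM. None of the 6 markers of leukocytes and hepatocytes reached 1 TPM. Of the 3 endothelial markers PECAM1 did, at 1.77 TPM, while CDH5 had 0 reads. In bulk RNA, few cells with much message and many cells with little cannot be told apart.

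The promoters of the members show how differently these genes begin. A RefSeq promoter window, 250 bases before to 50 after the start on GRCh38.p14, was given for 7 of the 10 members, and IGF2, IGFBP1 and IGFBP7 had no entry. The windows of IGF2R, IGFBP6, IGFBP3, IGFBP5 and IGF1 are printed 5′ to 3′ because they run from the highest member through a middle, a low and a trace level to a member without reads. Capitals mark CG dinucleotides.
IGF2R (chr6:159968832-159969131, plus strand): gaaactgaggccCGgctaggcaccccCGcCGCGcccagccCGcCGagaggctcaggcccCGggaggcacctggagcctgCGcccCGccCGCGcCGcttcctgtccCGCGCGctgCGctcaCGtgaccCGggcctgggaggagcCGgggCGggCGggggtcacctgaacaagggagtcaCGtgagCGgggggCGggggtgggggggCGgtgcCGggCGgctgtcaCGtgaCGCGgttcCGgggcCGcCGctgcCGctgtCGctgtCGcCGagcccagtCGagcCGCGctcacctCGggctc
IGFBP6 (chr12:53097417-53097716, plus strand): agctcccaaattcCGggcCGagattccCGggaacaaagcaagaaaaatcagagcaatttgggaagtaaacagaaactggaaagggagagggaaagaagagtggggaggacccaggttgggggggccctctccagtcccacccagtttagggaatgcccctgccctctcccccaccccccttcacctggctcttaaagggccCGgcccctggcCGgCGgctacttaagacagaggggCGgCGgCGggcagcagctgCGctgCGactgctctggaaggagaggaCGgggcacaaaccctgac
IGFBP3 (chr7:45921223-45921522, minus strand): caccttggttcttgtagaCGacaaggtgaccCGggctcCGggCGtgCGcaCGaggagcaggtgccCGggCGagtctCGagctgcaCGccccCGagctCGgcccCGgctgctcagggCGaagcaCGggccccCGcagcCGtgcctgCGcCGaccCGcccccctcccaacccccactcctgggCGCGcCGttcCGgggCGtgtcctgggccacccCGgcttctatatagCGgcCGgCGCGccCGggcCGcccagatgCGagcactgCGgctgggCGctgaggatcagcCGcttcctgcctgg
IGFBP5 (chr2:216695500-216695799, minus strand): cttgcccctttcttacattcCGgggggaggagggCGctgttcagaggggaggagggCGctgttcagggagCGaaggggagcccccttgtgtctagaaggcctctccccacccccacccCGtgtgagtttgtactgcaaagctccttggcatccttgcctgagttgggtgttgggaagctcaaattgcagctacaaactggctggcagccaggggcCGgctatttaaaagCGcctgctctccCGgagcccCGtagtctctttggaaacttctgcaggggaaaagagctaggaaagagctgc
IGF1 (chr12:102481698-102481997, minus strand): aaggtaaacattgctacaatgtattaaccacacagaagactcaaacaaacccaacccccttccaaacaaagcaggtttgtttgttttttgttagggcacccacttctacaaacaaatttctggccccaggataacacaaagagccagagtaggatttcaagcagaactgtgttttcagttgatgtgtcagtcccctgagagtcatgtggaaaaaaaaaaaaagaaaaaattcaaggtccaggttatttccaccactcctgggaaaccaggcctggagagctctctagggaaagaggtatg

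The IGF2R window held 41 CG dinucleotides, more than 93.3% of the 35116 promoter windows of RefSeq. It was followed by IGFBP3 with 36, IGFBP4 with 30, IGFBP2 with 28, IGFBP6 with 12, IGFBP5 with 9 and IGF1 with 0. Among protein-coding genes with a window, the median was 29 in the 9347 genes at or above 1 TPM and 10 in the 5998 genes below it, taking the window richest in CG for each gene. IGF1 and IGFBP5, which had 0 and 3 reads in all, both lay under the lower of these medians. The choice of window differs, however. For IGF1 with 2 entries and IGFBP2 with 3, the entry nearest the canonical start was counted, which need not be the richest in CG. IGFBP3 had a window as rich in CG as that of INSR (36 each) but a level close to 1 TPM, and IGFBP6 had few CG and a level above 20 TPM in each replicate. The IGF1 window printed is the nearer of 2 entries and starts 1184 bases from the start of the GENCODE canonical transcript, which the annotation picks to represent a gene, while the windows of the other 6 members start at the same base as theirs.

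**Figure D1:**
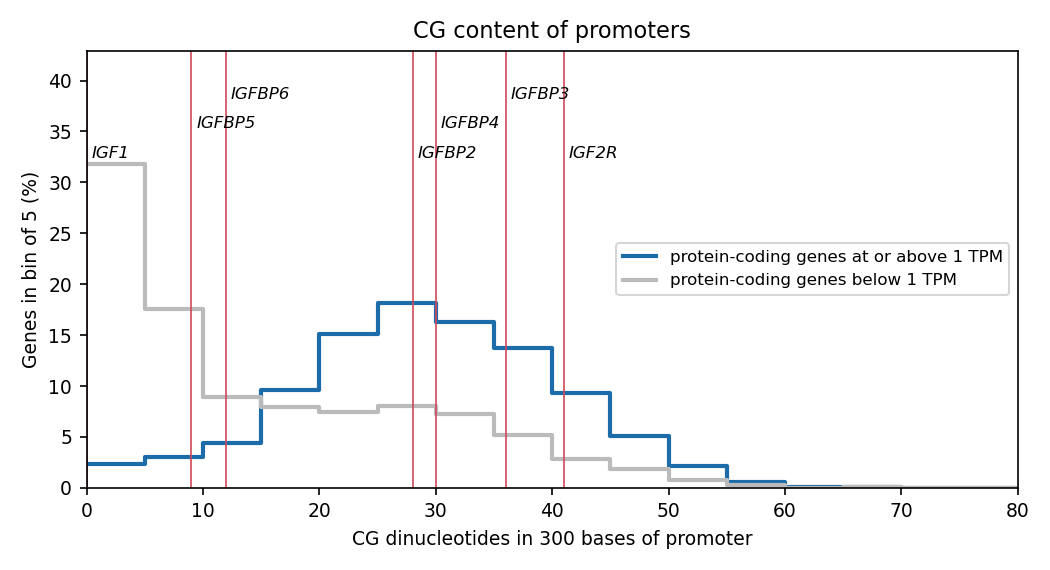
CG dinucleotides in 300 bases of promoter (x axis) for protein-coding genes at or above and below 1 TPM (percent of genes in bins of 5, y axis), with a vertical line for each of the 7 members that have a RefSeq window. IGF1 stands at 0 and IGF2R at 41, and the medians of the gene groups are 29 and 10. The gene groups use the window richest in CG for each gene, and the members the entry nearest the canonical start.

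The windows were searched on both strands for 4 short motifs. The first, CACGTG, is the E-box of basic helix-loop-helix factors, and TCACGTGA, which contains it, is the core of the element known from many lysosomal genes. The IGF2R window held CACGTG at 3 places, beginning at -132, -74 and -28 from the start, and each of them was part of a TCACGTGA. Of the 35116 windows, 7.26% held CACGTG at least once and 33 held it 3 times or more. TCACGTGA was found in 0.98% of windows, and 3 times or more in 4 of them. No other member with a window held either motif. The TATA box, spelled TATAAA and found in 11.5% of windows, occurred in 1 member, IGFBP4, beginning at -29. Other spellings of a TATA box were not searched, so the other members may hold one. The GC box, spelled GGGCGG and found in 44.95% of windows, occurred in the windows of IGF2R, IGFBP2, IGFBP3, IGFBP4 and IGFBP6. These matches describe letters and not bound factors.

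Of the 10 members, 6 had a mean at or above 1 TPM, the cutoff that the study uses to call a gene expressed: IGF2R and the binding proteins IGFBP7, IGFBP6, IGFBP2, IGFBP4 and IGFBP3. The cutoff was reached by 24.9% of all genes and by 56.7% of the 20046 protein-coding genes, so the share among the members was close to that of protein-coding genes. The other 4 members, IGFBP5, IGF2, IGF1 and IGFBP1, had between 0 and 3 reads over all replicates. Between IGFBP3 and IGFBP5 the level dropped from 1.14 to 0.0319 TPM, with no member in the gap.

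**Figure D2:**
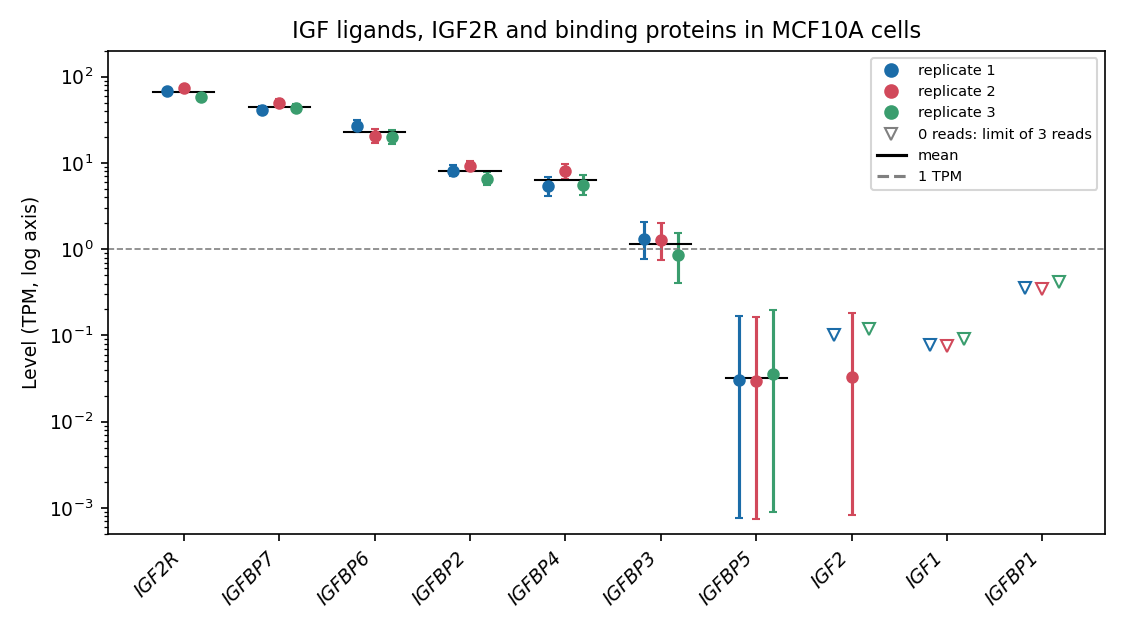
Level of each member in replicates 1 to 3 (TPM, log axis) with exact 95% Poisson limits on its reads, and the mean for the members with reads in every replicate. IGF2R, IGFBP7, IGFBP6, IGFBP2 and IGFBP4 lie above the dashed line at 1 TPM in every replicate, IGFBP3 straddles it, and triangles give the limit of 3 reads where a replicate had 0.

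Among the ligands, neither message was detectable at a level near the cutoff. IGF1 (ENSG00000017427, chromosome 12 of hg38, 102395874 to 102481744) had 0 reads throughout, and the limit of 3 reads over the replicates puts it at no more than 0.0272 TPM. Across the opposite strand, 92.0% of its canonical transcript is covered by the long non-coding gene HELLPAR, itself at 0.161, 0.456 and 0.133 TPM. The limit for IGF1 takes its full length and holds only if reads opposite HELLPAR were counted. The use of strand in counting is not given, and without those reads the limit would be higher. IGF2 (ENSG00000167244, chromosome 11, 2129112 to 2158391) had 0, 1 and 0 reads in replicates 1, 2 and 3. Exons of other genes on the same strand, among them the read-through gene INS-IGF2, cover 45.1% of its canonical transcript, and reads there need not be given to IGF2. Over the 3066 bases of its own, 1 read allows up to 0.120 TPM by the exact Poisson limit. INS-IGF2 and the insulin gene INS, which lies 1387 bases upstream of IGF2, had 0 reads as well, as had the antisense gene IGF2-AS. The microRNA gene MIR483 within IGF2 also had 0 reads, but whether these libraries could measure so short a gene was not tested.

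The relatives of the ligands did not reach the cutoff either. Of the 7 genes in this list, 0 had a mean at or above 1 TPM. IGFL3, of the IGF-like family, came nearest by the deposited TPM, with 1.40, 0.819 and 0 TPM in replicates 1, 2 and 3 from 8 reads in all. With canonical lengths IGFL2, also with 8 reads, was nearer, at 0.728 against 0.599 TPM. IGFL2 and IGFLR1, the latter a receptor of this family, had means of 0.279 and 0.265 TPM, IGFL4 had 2 reads, and IGFL1 had 0.

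On the receiving side, IGF2R (ENSG00000197081, chromosome 6, 159969082 to 160113507, 48 exons) was the highest member. Replicates 1, 2 and 3 gave 68.6, 73.5 and 58.4 TPM, counted on 5129, 5644 and 3717 reads, with a mean of 66.8 ± 7.66 TPM (SD, n = 3). Its level was above that of 78.0% of the protein-coding genes at or above 1 TPM. Replicate 3 was the lowest, and its log2 ratio to replicate 1, -0.23, was close to the median of -0.25 over genes.

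The signalling receptor IGF1R followed in the same range at 49.8, 52.0 and 42.6 TPM, with a mean of 48.1 ± 4.91 TPM (SD, n = 3). The log2 ratio of IGF2R to IGF1R was 0.46, 0.50 and 0.46 in replicates 1, 2 and 3, so that IGF2R was 1.39-fold higher with little variation between replicates. INSR was measured at 8.48, 8.95 and 7.91 TPM, and IGF1R was 5.68-fold above it (log2 ratio 2.51 ± 0.07, SD, n = 3). Both signalling receptors were thus found in every replicate. The third member of that family, INSRR, had 1 read.

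As a sorting receptor, IGF2R was read beside the genes of the mannose 6-phosphate route, and all 11 reached 1 TPM in each replicate. The smaller receptor M6PR, at 129 ± 12.7 TPM (SD, n = 3), was above IGF2R in every replicate, with a log2 ratio of IGF2R to M6PR of -0.95 ± 0.12 (SD, n = 3). Of the enzymes that these receptors carry, CTSD had 55.0 ± 9.14 and GLB1 53.0 ± 2.49 TPM (SD, n = 3 each). GNPTAB and GNPTG, whose product starts the mannose 6-phosphate tag, had means of 31.7 and 12.7 TPM. CTSD and GNPTG were counted on long transcripts with a retained intron, and with canonical lengths CTSD was at 96.4, GLB1 at 43.1 and GNPTG at 20.5 TPM. The antisense gene AIRN, which overlaps IGF2R, had 0 reads.

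The binding proteins were represented mainly by IGFBP7 and IGFBP6 on the scale of the deposited TPM. With canonical lengths IGFBP2 could not be told apart from IGFBP6. IGFBP7 (ENSG00000163453, chromosome 4, 57030773 to 57110385) was measured at 41.1, 49.3 and 43.4 TPM from 308, 380 and 277 reads, with a mean of 44.6 ± 4.24 TPM (SD, n = 3). It was the highest of the binding proteins in every replicate and did not differ from IGF1R beyond the spread, since IGF1R was higher in replicates 1 and 2 and lower in replicate 3. On the opposite strand, POLR2B and IGFBP7-AS1 cover 24.8% of its canonical transcript, and POLR2B was at 152 TPM. The use of strand in counting is not given in the sources used here. Of the 61 protein-coding genes with at least 80% of the canonical transcript opposite another gene and none of it shared on the same strand, 38 (62.3%) were at or above 1 TPM, against 55.3% of the 12459 genes with no overlap. These shares cannot show how strand was used, since a gene that loses reads can still reach 1 TPM. IGFBP7, at 24.8%, is not among the 61 genes. The part of reads from POLR2B in the level of IGFBP7 was not tested.

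IGFBP6 (ENSG00000167779, chromosome 12, 53097436 to 53102345), which prefers IGF2 over IGF1, was measured at 27.01, 20.6 and 20.2 TPM from 167, 131 and 106 reads, with a mean of 22.6 ± 3.83 TPM (SD, n = 3). Replicate 1 stood above the others. IGFBP7 exceeded it in every replicate, with a log2 ratio of 0.61, 1.26 and 1.11. Its neighbour SOAT2, which begins 1140 bases further on the same strand, had 0 reads.

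IGFBP2 (ENSG00000115457, chromosome 2, 216632828 to 216664436) was measured at 8.13, 9.25 and 6.57 TPM from 189, 221 and 130 reads, with a mean of 7.98 ± 1.34 TPM (SD, n = 3). IGFBP4 (ENSG00000141753, chromosome 17, 40443450 to 40457725), an inhibitory binding protein cleaved by the protease PAPPA, was measured at 5.43, 8.05 and 5.57 TPM from 63, 96 and 55 reads, with a mean of 6.35 ± 1.47 TPM (SD, n = 3). Replicate 2 was the highest for both genes. IGFBP2 was above IGFBP4 in every replicate, but the log2 ratio of 0.34 ± 0.21 (SD, n = 3) was the smallest between neighbours in the order, and the ranges of both genes overlapped. With canonical transcript lengths the log2 ratio was 1.98 ± 0.21 (SD, n = 3) and the ranges were apart.

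IGFBP3 (ENSG00000146674, chromosome 7, 45912245 to 45921874), the main carrier of IGFs in the circulation, was measured at 1.30, 1.27 and 0.849 TPM from 18, 18 and 10 reads, with a mean of 1.14 ± 0.25 TPM (SD, n = 3). The reads of all replicates gave 1.15 TPM with an exact 95% Poisson interval from 0.845 to 1.54, which holds the cutoff. At this gene 1 TPM corresponded to 13.8, 14.2 and 11.8 reads, so replicate 3 was below the cutoff by less than 2 reads. Of the protein-coding genes at or above 1 TPM, 1.06% were lower. IGFBP4 was 5.59-fold above it (log2 ratio 2.48 ± 0.36, SD, n = 3).

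IGFBP5 and IGFBP1 closed the list. IGFBP5 (ENSG00000115461, chromosome 2, 216672105 to 216695549) had 1 read in each replicate, or between 0.0296 and 0.0358 TPM. IGFBP1 (ENSG00000146678, chromosome 7, 45888360 to 45893660), known as a secreted product of liver and decidua, had 0 reads, and the same limit puts it at no more than 0.124 TPM. No order can be given among IGFBP5, IGF2, IGF1 and IGFBP1 at this depth.

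The position of the genes sets these contrasts side by side. IGFBP2 and IGFBP5 lie end to end on chromosome 2, on opposite strands and 7668 bases apart. With 540 and 3 reads in all, IGFBP2 was 254-fold above IGFBP5 per length, with a counting interval from 86.6 to 1237. With the shorter canonical length of IGFBP2 the ratio was 794, with an interval from 270.3 to 3863. IGFBP1 and IGFBP3 lie in the same arrangement on chromosome 7 with 18584 bases between them, one without reads and the other with 46. In both pairs the gene nearer to the cutoff or above it stood beside one at or close to 0. In the imprinted region of IGF2, the non-coding gene H19 had 6.11, 5.71 and 2.42 TPM from 77, 74 and 26 reads, where IGF2 had 1 read in all. H19 too was counted on a transcript with a retained intron, and its mean moved from 4.75 to 8.38 TPM with the canonical length. Its log2 ratio of replicate 3 to replicate 1 was -1.33, against the median of -0.25 over genes.

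Summed over IGFBP1 to IGFBP7, the binding proteins reached 83.0, 88.5 and 76.6 TPM in replicates 1, 2 and 3. IGFBP7 made up 49.5%, 55.7% and 56.7% of this sum and IGFBP6 32.5%, 23.3% and 26.3%. IGFBP2 and IGFBP4 followed with means of 9.60% and 7.64%, and IGFBP3 with 1.37%. By the deposited TPM, IGFBP7 and IGFBP6 were the largest parts of the sum in every replicate. With canonical lengths IGFBP2 was above IGFBP6 in replicate 2, at 25.6% against 22.6%.

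**Figure D3:**
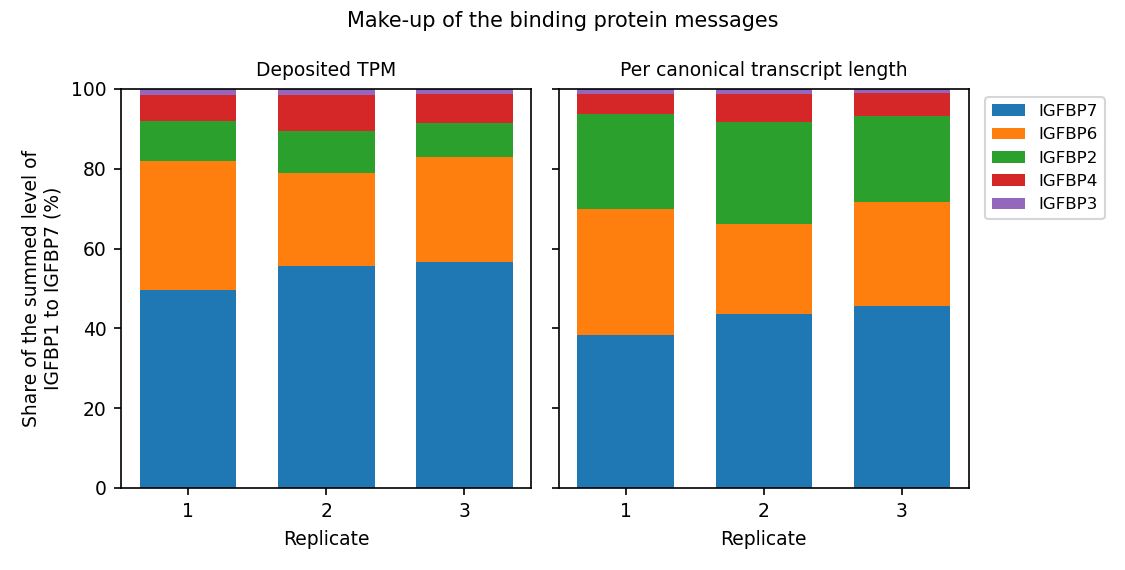
Share of each binding protein in the summed level of IGFBP1 to IGFBP7 (percent, y axis) in replicates 1 to 3, from the deposited TPM (left) and per canonical transcript length (right). IGFBP7 is the largest part in each bar, and the part of IGFBP2 is larger on the right, with means of 9.60% and 23.6%. IGFBP5 and IGFBP1 are too low to be seen.

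The gene length behind the TPM bears most on IGFBP2. The deposited values fit the longest annotated transcript of each gene, which for IGFBP2 is a transcript with a retained intron of 4412 bases as counted, 3.12 times its canonical transcript of 1414 bases. For IGFBP6 that ratio was 1.24, and for the other 8 members it lay between 0.996 and 1.05. Divided by canonical lengths and rescaled, the reads gave 20.4 ± 3.21 TPM for IGFBP2 and 22.9 ± 3.72 TPM for IGFBP6 (SD, n = 3 each). The median gene with at least 10 TPM had a ratio of 0.818 to its deposited value on this scale, and IGF2R, IGFBP7, IGFBP4 and IGFBP3 were lower by about as much. IGFBP6 was 2.83-fold above IGFBP2 by the deposited TPM (log2 ratio 1.73, 1.16 and 1.62 in replicates 1, 2 and 3), whereas with canonical lengths the log2 ratio was 0.40, -0.18 and 0.28 and both genes could not be told apart. Likewise IGFBP2 was level with INSR by the deposited TPM and 2.93-fold above it with canonical lengths. IGFBP3 fell below the cutoff on the canonical scale, at 0.935 TPM.

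**Figure D4:**
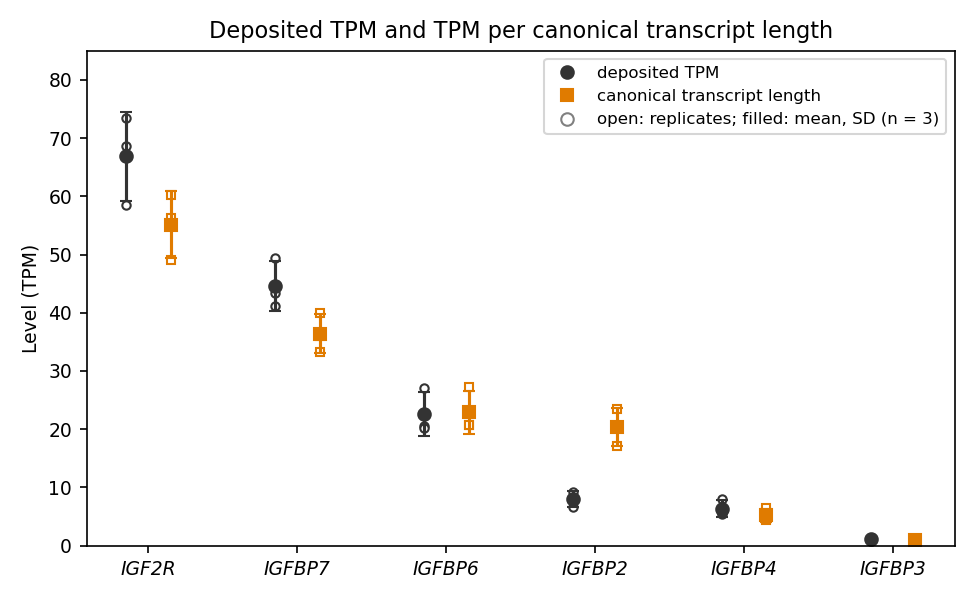
Level of the 6 members with a mean of at least 1 TPM (TPM, y axis) as deposited (circles) and per canonical transcript length (squares). Open symbols are replicates, and filled symbols with bars are the mean and SD (n = 3). IGFBP2 moves from 7.98 to 20.4 TPM, next to IGFBP6 at 22.9 TPM.

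By the deposited TPM the order IGF2R, IGFBP7, IGFBP6, IGFBP2, IGFBP4, IGFBP3 was the same in every replicate. On that scale each neighbour differed by more than the SD of its log2 ratio. With canonical lengths IGFBP2 was above IGFBP6 in replicate 2, and this pair did not differ beyond the spread. An exact sign-flip test over 3 replicates cannot give a two-sided p below 0.25, so no order was tested further. Over these 6 members the SD of log2(TPM + 1) between replicates had a median of 0.20, against 0.19 for all 15640 genes that averaged 1 TPM or more. By the deposited TPM, IGFBP7 varied least, at 0.13, and IGFBP4 most, at 0.28. These values include the lower level of many genes in replicate 3. With protein-coding genes scaled to the total, IGF2R was at 76.7 ± 4.47 and IGFBP7 at 51.5 ± 5.69 TPM (SD, n = 3 each). On that scale IGF2R varied less than IGFBP7, so the low spread of IGFBP7 depends on the scaling. The genes behind the median of 0.19 were not matched to the members by level.

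Whether the replicates differed beyond counting error was tested for every gene with at least 15 reads, by a chi-square test of the reads against equal TPM with Benjamini-Hochberg adjustment over 15802 genes. At an adjusted p under 0.05 it called 54.3% of the genes and 4 of the 6 members tested, IGF2R, IGFBP6, IGFBP2 and IGFBP4, a share close to that of all genes. With the replicates rescaled by the median ratio of genes, 31.2% of genes were called and 2 members, IGF2R and IGFBP7. IGF2R, with 14490 reads, was the member called both ways, and IGFBP3 was called by neither. Without replicate 1 the test called 46.7% of genes and 2 members, IGF2R and IGFBP2. Without replicate 2 it also called 46.7% of genes and 2 members, IGF2R and IGFBP6. Without replicate 3, the shallowest, 21.3% of genes and 1 member, IGF2R, were called.

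The genes around the IGF system were read from lists, 76 genes in 11 lists, of which 46 had a mean at or above 1 TPM. Only some of these genes carry an IGF signal. Over all protein-coding genes, 56.7% reached the same cutoff. Of the receptor substrates and adaptors, 6 of 7 were at or above it. SHC1, an adaptor that links receptors to RAS, had 537 ± 78.0 TPM and GRB2, its partner, 89.9 ± 7.90 TPM (SD, n = 3 each). The docking protein IRS1 was above IRS2 in every replicate, at 19.5 ± 4.59 and 12.6 ± 1.496 TPM (SD, n = 3 each), while IRS4 had 0 reads. GRB10, an inhibitory adaptor of these receptors, was at 23.6 ± 2.43 TPM (SD, n = 3).

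**Figure D5:**
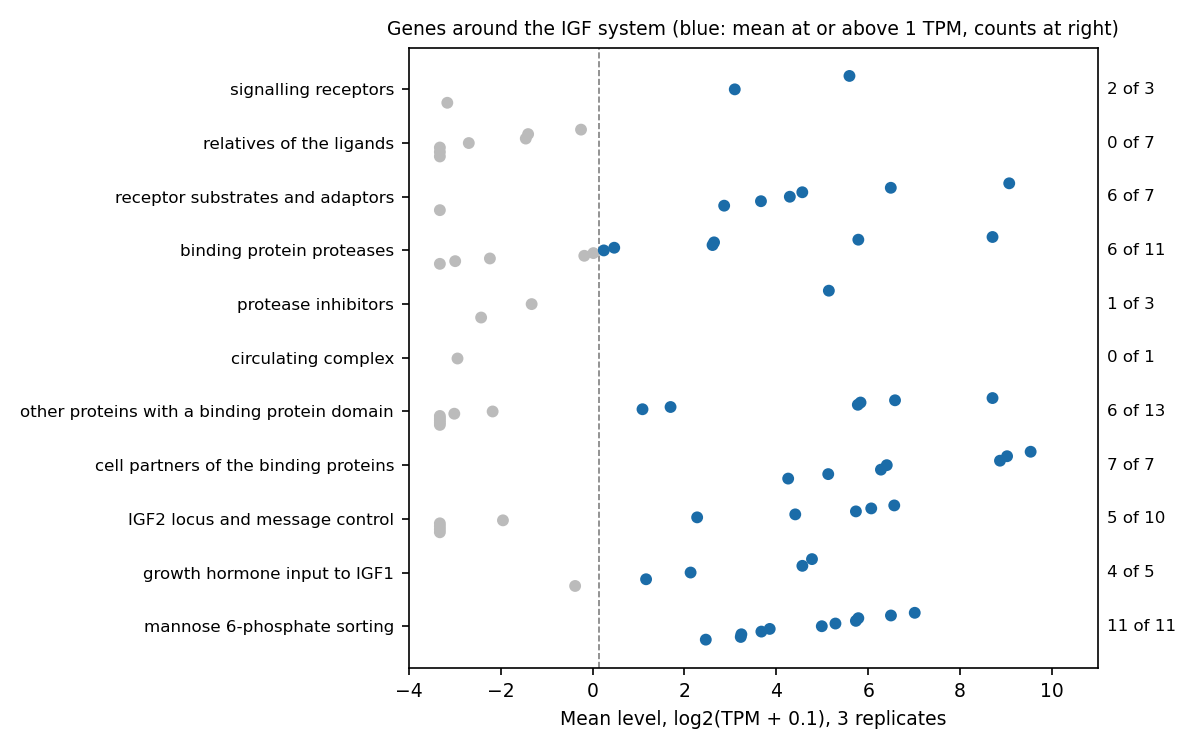
Mean level of each gene in 11 lists around the IGF system, as log2(TPM + 0.1) over 3 replicates (x axis), with the number at or above 1 TPM at right and a dashed line at that cutoff. All genes of the mannose 6-phosphate list and of the cell partners lie to the right of the line, and all relatives of the ligands to the left.

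Among proteases that cut binding proteins, 6 of 11 were at or above 1 TPM, against 56.7% of protein-coding genes. Of these proteases, 1 stood far above the rest. HTRA1, a secreted serine protease that itself carries an IGFBP-like domain, was measured at 443, 444 and 364 TPM, with a mean of 417 ± 45.9 TPM (SD, n = 3). It was 9.34-fold above IGFBP7, the highest binding protein, and above it in every replicate. CTSD followed at 55.0 TPM, MMP2 at 6.15 ± 0.35 and ADAM12 at 6.01 ± 0.58 TPM (SD, n = 3 each). PAPPA, the protease of IGFBP4, had 0.624, 1.28 and 0.835 TPM from 153 reads in all, with only replicate 2 above the cutoff. STC2, a stanniocalcin that blocks PAPPA, was at 35.2 ± 6.20 TPM (SD, n = 3), above PAPPA in every replicate. STC1 and PRG2, the other inhibitors listed, had 0.299 and 0.0864 TPM.

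Other proteins with an IGFBP-like domain were split, with 6 of 13 at or above 1 TPM and 5 without a read. Besides HTRA1, these were CRIM1 at 95.8 ± 10.2, CCN1 at 56.9 ± 4.93, CCN2 at 54.6 ± 6.24, CCN3 at 3.15 and KAZALD1 at 2.03 TPM (SD, n = 3 where given). CCN1 and CCN2 are secreted matrix proteins and did not differ beyond the spread between replicates by the deposited TPM. With canonical lengths CCN1 was 1.41-fold higher, in every replicate (log2 ratio 0.50 ± 0.09, SD, n = 3). HTRA3 and HTRA4, close relatives of HTRA1, had 1 and 4 reads, and IGFBPL1 had 0.

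All 7 cell partners of the binding proteins reached 1 TPM in each replicate. CAV1 was the highest by the deposited TPM at 742 ± 102, followed by the integrin subunit ITGB1 at 520 ± 55.0 TPM (SD, n = 3 each). Next were the nuclear import receptor KPNB1 at 467 ± 37.02 and RXRA at 84.6 ± 11.6 TPM (SD, n = 3 each). ITGB1 and the integrin subunit ITGA5 were counted on long transcripts with a retained intron. With canonical lengths CAV1 was at 654, ITGB1 at 638, KPNB1 at 389, ITGA5 at 74.2 and RXRA at 71.9 TPM. LRP1 and TMEM219, known as receptors of IGFBP3, were at 19.03 and 34.9 TPM, where IGFBP3 itself was at 1.14 TPM.

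For the control of IGF2, 5 of 10 genes were at or above 1 TPM. IGF2BP2, an RNA-binding protein named after IGF2 messages, was at 94.7 ± 11.6 TPM and IGF2BP3 at 21.2 ± 2.71 TPM (SD, n = 3 each), whereas IGF2BP1 had 0 reads. HMGA2, a chromatin protein known to activate IGF2BP2, was at 53.1 ± 8.03 TPM and the insulator factor CTCF at 66.9 ± 7.64 TPM (SD, n = 3 each). With canonical lengths their order turned, with HMGA2 at 85.3 and CTCF at 68.8 TPM. PLAG1, an activator of IGF2, was at 0.159 TPM, and LIN28A and LIN28B had 0 reads. Of the 5 genes of the growth hormone route to IGF1, 4 were at or above 1 TPM. The receptor GHR was at 2.14 ± 0.71 TPM (SD, n = 3), SOCS2 at 27.3, STAT5B at 23.6 and JAK2 at 4.29 TPM, and STAT5A was below the cutoff at 0.669 TPM. IGFALS, the third subunit of the circulating complex with IGFBP3 or IGFBP5, had 1 read.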

How the data were processed

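RNA of 3 replicates of untreated empty-vector MCF10A cells was sequenced on an Illumina instrument. The authors mapped reads to hg38 and counted them per gene with Seq2science, and deposited TPM for 62754 genes. The submitters' processing notes also name STAR, fastp, MultiQC and GRCh38.p14. The annotation release, the counter and the use of strand are not given in the sources used here.

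Identifiers were matched to GENCODE release 44 (62700 matched, 54 did not), and positions are 1-based on hg38. Reads were recovered as TPM times the longest transcript length less its number of exons, divided by the smallest value above 0. The annotation was chosen here, and the whole numbers it gave are the check of it. Exact 95% Poisson limits and a limit of 3 reads for a count of 0 cover counting error only. A gene was called expressed at a mean of at least 1 TPM. Ratios between members were taken per replicate as log2 of TPM, and spread was taken on log2(TPM + 1). The chi-square test was applied to genes with at least 15 reads. It was tested on simulated data before use. Computations used scipy 1.17.1, pandas 2.3.3 and numpy 2.4.6 under Python 3.11.15, and figures matplotlib 3.10.9.

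The genes named are all 10 members and genes of the pathway and marker lists. Members and lists were chosen with earlier results of these data known. Alternatives were canonical transcript length, 2 other scalings, leaving out mitochondrially encoded genes, the median, other cutoffs and filters, a pseudocount of 0.1, and leaving out each replicate.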

Additional observations from a re-analysis of the deposited data

How the results depend on the processing

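No paired analysis was possible because a single condition was measured. The count of members at or above 1 TPM was 6, or 5 where IGFBP3 fell below: at a cutoff of 2 TPM, with every replicate required, and with canonical transcript lengths. The order by mean differed at 0 places under each other scaling and between 0 and 2 places when a replicate was left out. The 2 places are IGF2 and IGF1, both at 0 reads without replicate 2. With canonical lengths IGFBP6 and IGFBP2 kept their order by mean but did not differ beyond the spread. The count of members that differed between replicates was 4, but 2 with median-ratio scaling, 2 of 8 tested with no filter on reads (31.7% of 26242 genes called), and between 1 and 2 when a replicate was left out. Over all genes that test called 8575, against 4930 with median-ratio scaling and 3185 without replicate 3, and the cause was not tested. With canonical lengths, IGF2R was at 55.2, IGFBP7 at 36.4 and IGFBP2 at 20.4 TPM, while the median gene moved by -0.29 on the log2 scale. With protein-coding genes scaled to the total, IGF2R was at 76.7 and IGFBP7 at 51.5 TPM, and the median gene moved by 0.20. Of the pathway genes, 44 to 50 reached the cutoff over the alternatives, against 46. Depth limits the lowest members: IGFBP5, IGF2, IGF1 and IGFBP1 rest on 0 to 3 reads.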
